A study of Mus musculus with 45 samples.

Results

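The genes described here carry the symbols of proteins of the cytosolic ribosome, although Rps4l is listed as a pseudogene in GENCODE M21. They were chosen by symbol, as Rpl or Rps followed by a number with at most a letter and a further digit, together with Rpsa, Rplp0, Rplp1 and Rplp2. Rps2 and symbols of pseudogenes marked -ps were left out, and a mean normalized count of at least 100 was required in each of the 2 deposited tables. Of 19432 genes listed, 84 matched by name and 60 reached the minimum. By symbol, 37 belong to the large subunit and 23 to the small subunit, with Rpl7l1 and Rps4l counted in this way. The normalized count is what the authors deposited per gene: reads, scaled by 1 factor for each library. The lowest member was Rpl3, with a mean of 113 normalized counts in the first table, and the highest genes kept out were Rps18 at 99.5 and Rpl12 at 95.6 in that table. All 60 members passed the filter on low values in both tables, so each enters every count below.

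The cytosolic ribosome is built from a large and a small subunit, each an RNA core covered with proteins, nearly all of which are needed in every cell. Messenger RNAs of most ribosomal proteins begin with a run of pyrimidines, the 5′ terminal oligopyrimidine tract, through which growth signalling by mTOR controls their translation more than their amount. Heart and skeletal muscle also make Rpl3l, a paralog that can take the place of Rpl3, a large-subunit protein that reaches towards the site where peptide bonds form.

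RNA sequencing of polyadenylated RNA was done on 45 whole mouse hearts, perfused with buffer, frozen and powdered. OE hearts carried a transgene for transient overexpression of ERBB2, a receptor tyrosine kinase that acts with other receptors of its family, in cardiomyocytes, and WT hearts were wild type. Each genotype was studied after the injury named MI and after sham treatment, at 3 times: during overexpression (T1, called dedifferentiation in the labels), 2 weeks after it (T2, intermediate) and 4 weeks after it (T3, redifferentiation). The groups were OE MI, WT MI, OE sham and WT sham at each time. Of the 12 groups, 3 held 3 hearts (the MI hearts of either genotype at T2 and the OE sham hearts at T3) and the others held 4. The strain, age and sex of the mice, the promoter of the transgene and the timing of MI against the overexpression are not stated in the labels used here, so what all groups share in these is not known. The labels only number the hearts within a group, so p-values reflect the spread among these libraries, part of which may be technical.

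Between 14199741 and 19015856 reads were assigned to genes per library. T1 hearts form 1 table and T2 and T3 hearts the other. The scaling was done separately for each, so tests were made only within a table. Erbb2 checked the labels: it had 770 to 2436 normalized counts in OE sham hearts at T1, against 243 to 250.2 in WT sham hearts, and 769 to 2401 in OE MI hearts, against 201 to 303 in WT MI hearts. Of the 6 marker lists examined, no marker was at 0 in any group. The 7 cardiomyocyte markers (Myh6, Actc1, Tnnt2, Tnni3, Myl2, Ryr2, Ttn) summed to 623272 to 746010 normalized counts in OE sham hearts at T1, against 943559 to 1096490 in WT sham hearts. The 6 fibroblast markers (Col1a1, Col1a2, Col3a1, Dcn, Pdgfra, Postn) summed to 108711 to 135100 in OE sham hearts at T1, against 24274 to 27372 in WT sham hearts. Since whole hearts were measured, fewer cells of a type and less RNA per cell cannot be told apart.

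The ribosomal protein that stood out was Rpl3l (ENSMUSG00000002500), on the plus strand of chromosome 17 at 24727820 to 24736143 in GRCm38, a protein-coding gene. The 250 bases before its RefSeq start (GRCm38.p6, chr17:24727576-24727825, plus strand) are shown because it alone among the members fell several fold. Capitals mark 3 matches of CANNTG, the E-box bound by basic helix-loop-helix factors, and 1 match of AGATAA on the other strand, read here as TTATCT, a letter string of GATA sites.
Rpl3l upstream: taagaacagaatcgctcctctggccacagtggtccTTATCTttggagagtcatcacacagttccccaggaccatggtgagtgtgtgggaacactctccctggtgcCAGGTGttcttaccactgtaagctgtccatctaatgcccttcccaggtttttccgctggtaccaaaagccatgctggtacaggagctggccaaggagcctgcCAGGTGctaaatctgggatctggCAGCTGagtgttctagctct
The CANNTG matches begin 145, 43 and 20 bases before the start, and TTATCT begins 215 bases before it. The last 6 of these bases lie inside the gene in GENCODE M21. CANNTG, which reads the same on both strands, was found in the 250 upstream bases of 51.1% of the 45 members with a RefSeq promoter sequence and of 69.3% of all 27025 genes with one. AGATAA on either strand was found in 4.44% of those members and in 11.4% of all such genes. A match of letters describes the window only.

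During overexpression Rpl3l fell about 9-fold in sham hearts. OE sham hearts at T1 had 328, 520.2, 625.1 and 744 normalized counts of Rpl3l, against 4294, 5529, 4576 and 4956 in WT sham hearts. The groups did not overlap, and the highest OE heart was far below the lowest WT heart. The means were 554 ± 176 in OE and 4839 ± 534 in WT (SD, n = 4 each). The log2 fold change was −3.18 ± 0.28 (SE), a level 9.06-fold lower in OE, with an adjusted p of 7.53e-07 (limma, Benjamini-Hochberg over 15375 genes). Ordered from the lowest log2 fold change of all genes tested, Rpl3l was number 38.

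After MI the same gene was low again in OE hearts at T1. OE MI hearts had 590.2, 985, 361 and 790.2 normalized counts, against 4309, 3678, 3829 and 2568 in WT MI hearts, again with no overlap. The log2 fold change was −2.47 ± 0.28, a level 5.53-fold lower in OE (limma adjusted p = 2.36e-05). The effect of OE in MI hearts minus that in sham hearts was 0.71 ± 0.40 on the log2 scale and did not pass the test (limma adjusted p = 0.615). Cardiomyocyte markers moved the same way at T1: 5 of the 7 fell in OE sham hearts, with a median log2 fold change of −0.86 over the list, and 5 of 7 fell in OE MI hearts, with a median of −0.44. The marker with the largest fall in OE sham hearts was Tnni3, troponin I of the cardiac thin filament, at −1.23, a smaller change than that of Rpl3l. The part of cell makeup in the fall of Rpl3l was not tested.

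At 2 weeks after overexpression Rpl3l was still lower in OE sham hearts. Erbb2 was still higher in these hearts, at 271 to 308 normalized counts, against 172 to 218 in WT sham hearts. Its log2 fold change was 0.48 ± 0.09 (limma adjusted p = 0.000259), and 0.28 ± 0.10 in MI hearts at T2 (limma adjusted p = 0.207). For Rpl3l, OE sham hearts had 2547, 2089, 2613 and 2823 normalized counts, against 4293, 4219, 5343 and 3976 in WT sham hearts, with no overlap. The log2 fold change was −0.82 ± 0.14, a level 1.77-fold lower in OE (limma adjusted p = 0.000182, over 15533 genes). Among MI hearts the groups overlapped at T2: OE MI hearts had 1900, 3327 and 2615, and WT MI hearts had 2619, 2769 and 3031. There the log2 fold change was −0.14 ± 0.17 (limma adjusted p = 0.787). The difference between both effects, 0.69 ± 0.22, was just outside the threshold (limma adjusted p = 0.0692). It was past it with DESeq2 (0.72, adjusted p = 0.0187) and, in limma, without OE MI T2 replicate 1 (0.90, adjusted p = 0.0120). In 21 of the 24 alternatives run it stayed outside the threshold.

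At 4 weeks the groups overlapped in sham and in MI hearts. OE sham hearts had 4021, 4495 and 3562 normalized counts of Rpl3l, against 3730.3, 4602, 4921 and 5333 in WT sham hearts (log2 fold change −0.20 ± 0.16, limma adjusted p = 0.435). OE MI hearts had 2861, 3072, 3609.7 and 4081, against 2627, 3353, 2764 and 2946 in WT MI hearts (0.21 ± 0.14, limma adjusted p = 0.502). The OE effect in sham hearts at T3 minus that at T2 was 0.62 ± 0.21 and narrowly missed the threshold (limma adjusted p = 0.0560). It was past the threshold with DESeq2 (0.62, adjusted p = 0.0295), in a limma fit of the compared groups alone (0.62, adjusted p = 0.0285), and without OE sham T2 replicate 4 (0.68, adjusted p = 0.0483) or without WT sham T3 replicate 4 (0.69, adjusted p = 0.0435). That difference stayed outside the threshold in 20 of the 25 alternatives run. Side by side, the log2 fold changes in sham hearts were −3.18 at T1, −0.82 at T2 and −0.20 at T3, the first in a table of its own.

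Injury was also accompanied by less Rpl3l in wild-type hearts at the later times. These comparisons share the WT sham hearts with those of OE sham against WT sham. WT MI hearts averaged 2806 ± 209 normalized counts at T2 (n = 3), against 4458 ± 606 in WT sham hearts (n = 4), a log2 fold change of −0.66 ± 0.16, or 1.58-fold lower after MI (limma adjusted p = 0.00384). At T3 WT MI hearts averaged 2922 ± 315, against 4647 ± 680.3 in WT sham hearts (n = 4 each), again −0.66, ± 0.14 (limma adjusted p = 0.00369). No WT MI heart reached the lowest WT sham heart at either time. At T1 the log2 fold change was −0.45 ± 0.28 and did not pass the test (limma adjusted p = 0.351). Of the 7 cardiomyocyte markers, 5 fell after MI in WT hearts at T2 (median −0.39) and 4 at T3 (median −0.36). Of the 6 fibroblast markers, 6 rose at T2 (median 1.93) and 5 at T3 (median 1.38), and of the 6 macrophage markers (Cd68, Adgre1, C1qa, C1qb, Csf1r, Lyz2) 2 rose at T2 (median 0.64) and 6 at T3 (median 0.99). The part of these cell types in the result was not tested.

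**Figure D1:**
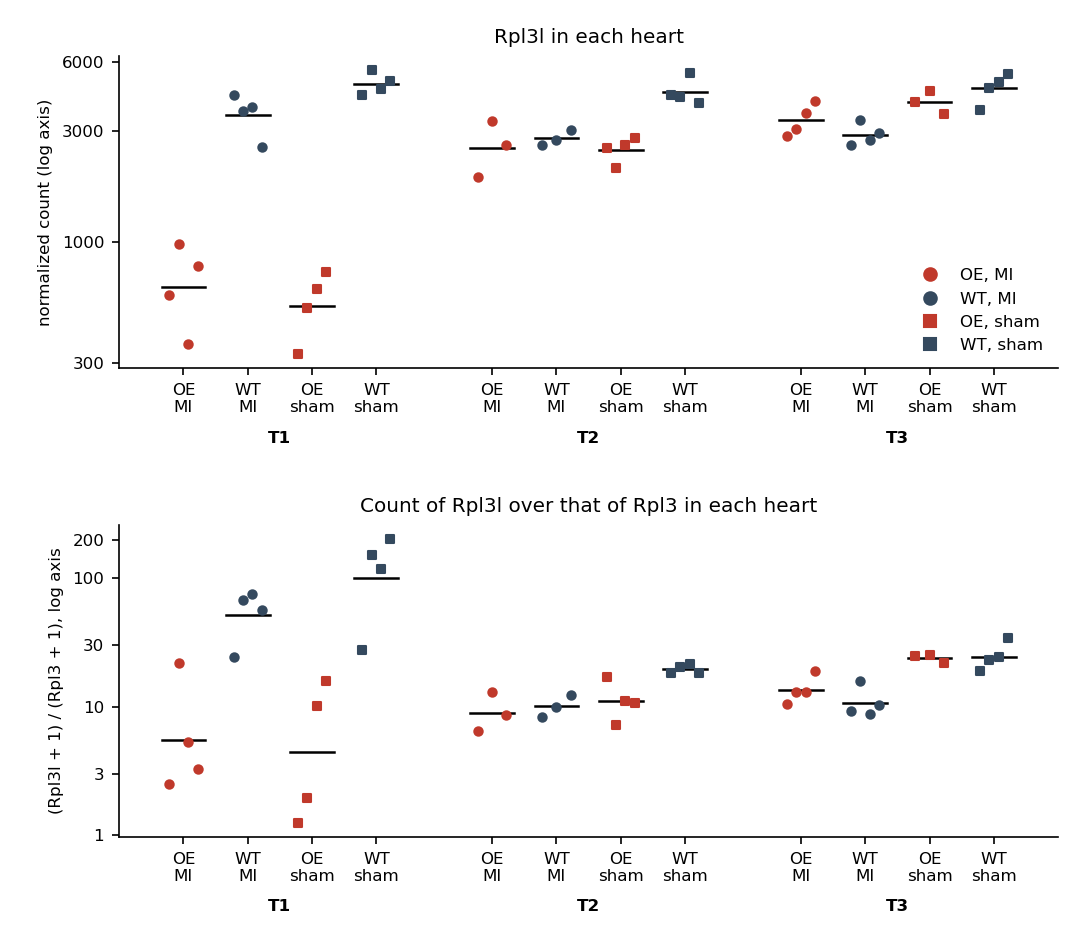
Each point is 1 heart, with OE MI, WT MI, OE sham and WT sham from left to right at each time and bars at geometric means; the upper axis is the normalized count of Rpl3l and the lower axis the ratio of (Rpl3l + 1) to (Rpl3 + 1), both on log scales. At T1 the 8 OE hearts lie between 328 and 985 normalized counts and the 8 WT hearts between 2568 and 5529.

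Set against its partner within each heart, Rpl3l can be read without the scaling of libraries. The ratio of Rpl3l to Rpl3, each with 1 added, was 1.24 to 15.7 in OE sham hearts at T1, against 27.7 to 204 in WT sham hearts. In MI hearts at T1 it was 2.50 to 21.7 in OE, against 24.3 to 75.2 in WT. At T2 it was 7.17 to 17.1 in OE sham hearts, against 18.2 to 21.6 in WT sham hearts. In these 3 comparisons the groups did not overlap, and the log2 ratio was lower in OE by −4.51, −3.22 and −0.84. Each had p = 0.0286 in a two-sided exact permutation test, the smallest that 4 hearts against 4 can give, and 0.0571 after Benjamini-Hochberg adjustment over the 6 ratio comparisons, so none passed 0.05 after adjustment. The other ratios overlapped: 6.42 to 13.0 in OE MI against 8.29 to 12.4 in WT MI at T2 (exact permutation p = 0.8, smallest possible 0.1), 21.8 to 25.4 in OE sham against 18.9 to 34.1 in WT sham at T3 (p = 0.914, exact, smallest possible 0.0571), and 10.4 to 18.8 in OE MI against 8.81 to 15.96 in WT MI at T3 (exact permutation p = 0.286).

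The partner itself was measured with much less certainty. Rpl3 (chromosome 15, 80077791 to 80091868, minus strand) had 264, 269.8, 61.3 and 46.4 normalized counts in OE sham hearts at T1, against 154, 35.5, 37.5 and 23.3 in WT sham hearts. The groups overlapped, and hearts within a group differed several fold (log2 fold change 1.33 ± 0.76, limma adjusted p = 0.169). In MI hearts at T1 it was 0.75 ± 0.76 (limma adjusted p = 0.502). Rpl3 was called once, higher in WT MI than in WT sham hearts at T3: 282, 209, 313 and 287 in WT MI hearts, against 197, 198, 202 and 155 in WT sham hearts, with no overlap. That log2 fold change of 0.53 ± 0.15 (limma adjusted p = 0.0189) lost its call without WT sham T3 replicate 4 (0.44, adjusted p = 0.0804), without WT MI T3 replicate 1 (adjusted p = 0.0554) and without WT MI T3 replicate 3 (adjusted p = 0.0725).

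Copies of ribosomal protein genes may bear on these levels, which was not tested. Of the 50-base words in the longest coding transcript of Rpl3, 85.6% also occur in transcripts of other genes, 26 genes in all, against none for Rpl3l. The sources used here do not say how reads matching several genes were counted, so the level of Rpl3 and of other members with close copies is uncertain, and a fold change of such a member rests on the reads that were kept. The median share of such words was 35.9% over 59 members and 57.1% over 22 name matches below the minimum. Across 81 name matches this share and the mean level at T1 had a Spearman rho of −0.49, a description across genes that share libraries. Among the genes below the minimum were Rps6, the small-subunit protein phosphorylated by S6 kinase, at a mean of 11.4 normalized counts at T1, and Rpl5 and Rpl11, which carry 5S RNA into the large subunit, at 48.5 and 33.9. Rpl22l1, Rps27 and Rpl39l, named as paralogs or partners, were also below it.

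The other 59 members moved far less. In the 3 comparisons at T1, 56, 55 and 57 of these 59 members had a log2 fold change between −0.5 and 0.5. At T2 and T3 it was 56 to 59. In OE sham against WT sham hearts at T1, 3 members rose and 3 fell, where 24% and 23.3% of all 15375 genes tested were called higher and lower. The median log2 fold change was 0.00 over the members and 0.01 over all genes. That is 5% of the members in each direction, a lower share than among all genes.

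The 3 that rose in OE sham hearts at T1 all belong to the large subunit. Rpl10a, the protein of the L1 stalk, had 167, 246, 208 and 141 normalized counts in OE, against 128, 110.2, 136 and 129 in WT, with no overlap (0.56 ± 0.16, limma adjusted p = 0.00855). Rpl39, a short protein of the exit tunnel, had 388, 436, 399 and 303 in OE, against 253, 279, 317 and 306 in WT, with overlap in 1 OE heart (0.39 ± 0.11, limma adjusted p = 0.00666). Rpl41, the smallest ribosomal protein, had 1845, 1951, 1859.9 and 1548 in OE, against 1372, 1434, 1502 and 1602 in WT, again with 1 OE heart inside the WT range (0.28 ± 0.08, limma adjusted p = 0.00742). All 3 kept their direction and call under the 18 alternatives tried. Of their 50-base words, 77.5% in Rpl10a, 16.2% in Rpl39 and 43.9% in Rpl41 occur in other genes.

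Besides Rpl3l, Rps9 and Rps3a1 fell in OE sham hearts at T1, by little. Rps9, a protein of the small-subunit body, had 2492, 2537, 2515 and 2385 normalized counts in OE, against 2617, 2880.5, 2808 and 2867 in WT (−0.17 ± 0.07, limma adjusted p = 0.0467). Rps3a1, a small-subunit protein near the mRNA exit, changed by −0.15 ± 0.06 (limma adjusted p = 0.0359). These calls were fragile: Rps9 kept its call in 5 of the 18 alternatives and Rps3a1 in 7, and with scaling to library totals they were higher in OE, at 0.13 and 0.15. Rps3a1 was then called higher (limma adjusted p = 0.0433), as were 7140 of all 15375 genes. The number of members that rose was 7 without OE sham T1 replicate 4, and the number that fell was 1 without OE sham T1 replicate 1 or 4 or WT sham T1 replicate 3 or 4.

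In MI hearts at T1 the members leaned lower in OE. Of 60 members, 1 rose and 16 fell, where 14.7% of all genes were called higher and 15.2% lower. The median log2 fold change was −0.15 over the members and 0.01 over all genes, and 52 members were below 0. Apart from Rpl3l, 12 of the 15 that fell were small-subunit proteins. Rps25, a small-subunit protein that some viral internal entry sites need, had 862, 814, 897 and 867 normalized counts in OE MI hearts, against 1062, 1112, 1066 and 1039 in WT MI hearts, with no overlap (−0.32 ± 0.06, limma adjusted p = 0.00143). Rps21, a small-subunit protein, had 839, 669, 758 and 682 in OE, against 869.5, 1001, 1030.5 and 855 in WT, also apart (−0.35 ± 0.11, limma adjusted p = 0.0224). Rpl9 (−0.31), Rps15a (−0.30), Rps4x (−0.27), Rplp2 (−0.27) and Rps19 (−0.27), the last a protein mutated in Diamond-Blackfan anaemia, fell as well, and Rps3a1, Rps14, Rps3, Rps7, Rps15 and Rps9 fell by 0.25 to 0.18.

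Several of these calls were lost when 1 heart was left out. Rpl9 lost its call without WT MI T1 replicate 2 or 3 or OE MI T1 replicate 1, 2 or 4 (limma adjusted p = 0.0665 to 0.0987), and Rps21 without WT MI replicate 2 or 3 or OE MI replicate 2 or 4 (0.0567 to 0.0674). Rps9 lost it without WT MI replicate 2 or 3 or OE MI replicate 2, 3 or 4 (0.0831 to 0.151), and also with TMM scaling (0.0509), edgeR (0.0505) and no filter (0.0601). Rps7 lost it without WT MI replicate 2, 3 or 4 or OE MI replicate 2 or 4 (0.0512 to 0.0859), Rps15 without WT MI replicate 1, 2 or 4 or OE MI replicate 2 or 4 (0.0511 to 0.0856), and Rps4x without WT MI replicate 3 or OE MI replicate 3 (0.0507 and 0.0505). Rps25, Rps15a, Rplp2, Rps19, Rps3a1, Rps14 and Rps3 kept their calls whichever heart was left out.

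The calls behind this lean depended on the scaling. Rescaling a library shifts all its genes nearly alike. The gap between the median of the members and that of all genes therefore hardly changes, and it is no check of the lean. With library totals in place of the deposited normalization, 13 members were called higher and 1, Rpl3l, lower in OE MI hearts at T1. Of all 15375 genes, 6274 were then called higher and 1139 lower. The median log2 fold change was 0.12 over the members and 0.27 over all genes. The latter had moved by 0.27 from its value with the deposited scaling. In sham hearts at T1 the same scaling gave 44 higher and 1 lower, where 7140 and 1789 of all genes were called. There the median of all genes shifted by 0.30. Reads of mitochondrially encoded transcripts were 16.3% of reads in OE MI hearts at T1, against 24.1% in WT MI hearts, and 17.8% in OE sham hearts, against 26.1% in WT sham hearts. With totals that leave out these transcripts, 3 were higher and 2 lower in MI hearts, and 19 higher and 1 lower in sham hearts. Of all genes, 3913 were then higher and 1617 lower in MI hearts, and 5283 higher and 2495 lower in sham hearts. Beside these counts, 5 of 6 fibroblast markers rose in OE MI hearts at T1 (median 0.92) and 6 of 6 in OE sham hearts (median 2.84), and their part was not tested. Under each of these scalings Rpl3l was called lower in OE at T1.

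Rps4l was the member that rose in OE MI hearts at T1. It had 202, 265, 217 and 293 normalized counts in OE, against 169, 154, 112 and 145 in WT, with no overlap (0.75 ± 0.18, limma adjusted p = 0.00520). Rps4l is listed in GENCODE M21 as a transcribed processed pseudogene on chromosome 6, the only member that is not a protein-coding gene there, and it was kept because its symbol passes the rule. At T3 it was called in the other direction in sham hearts: 96.8, 157 and 63.8 in OE, against 122, 263, 241 and 271 in WT, with overlap (−1.11 ± 0.36, limma adjusted p = 0.0455). The T3 call was lost without OE sham T3 replicate 1 or 3, or without WT sham T3 replicate 2, 3 or 4, with adjusted p-values between 0.101 and 0.273.

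MI by itself left the members without a call at T1. In WT MI against WT sham hearts at T1, limma called 0 of 60 members in either direction, where 4.31% of all genes were called higher and 1.49% lower. At an unadjusted p under 0.05 there were 22 members and 3773 of all 15375 genes. Of the 60 members, 56 had a log2 fold change above 0, with a median of 0.14, against −0.02 over all genes. edgeR called 1 member and 764 of all genes higher, and DESeq2 2 members and 1029 genes. In the same comparison 6 of 6 fibroblast markers rose (median 1.90) and 4 of 6 macrophage markers (median 0.70), and their part was not tested. For 14 members all WT MI hearts lay above all WT sham hearts, where this held for 7.51% of all genes, and for none did they lie below, where 7.08% of all genes did. The effect of OE in MI minus that in sham hearts at T1 was below 0 for 53 members, with a median of −0.15. It gave 0 calls by limma in either direction, where 0.013% and 0.078% of all genes were called. An unadjusted p under 0.05 was found for 7 members and for 1467 of all 15375 genes.

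At T2 some members fell in OE sham hearts, and the number depended on the scaling and on single hearts. In OE sham against WT sham hearts 0 rose and 16 fell, where 11.8% of all genes were called higher and 13.6% lower, and 55 members were below 0. The median log2 fold change was −0.17 over the members and 0.02 over all genes. The stalk proteins, which call elongation factors to the ribosome, were among the largest: Rplp2 had 1124, 1059.7, 1021 and 1084 normalized counts in OE, against 1304, 1236, 1710.4 and 1167 in WT, with no overlap (−0.32 ± 0.09, limma adjusted p = 0.00610). Rplp0, the base of that stalk, had 3947, 3863, 4256 and 4094 in OE, against 4627, 4369.8, 5749.9 and 4675 in WT, also apart (−0.26 ± 0.07, limma adjusted p = 0.00828). Rplp1 changed by −0.27 ± 0.10 (limma adjusted p = 0.0453). Rps7 (−0.27), Rps25 (−0.24) and Rpl32 (−0.24) fell as well, and Rpl14, Rps15a, Rpl8, Rps19, Rps3 and Rpl4 fell by 0.21 to 0.16. In the same comparison all 6 fibroblast markers rose (median 0.92) and 4 of 7 cardiomyocyte markers fell (median −0.38), and their part in the members' fall was not tested.

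The count at T2 leaned on 1 control heart. WT sham T2 replicate 3 was the highest of its group for Rplp2 and Rplp0, and without it 3 members fell, Rpl3l among them. Without OE sham T2 replicate 3 or 4 it was 9 and 10 members. Rplp1, Rpl14 and Rps3 kept their calls in 5 of the 18 alternatives, Rps19 in 6 and Rpl4 in 4. With library totals 1 member fell, where 763 of all 15533 genes did. The median was 0.034 over the members and 0.22 over all genes, the latter after a shift of 0.20. Libraries were also scaled to the sum of the members other than Rpl3l, an alternative chosen after seeing the data. This makes the sum equal in all libraries, so a median near 0 and few calls among the members were largely fixed in advance. With this scaling 1 member fell, where 703 of all genes did, and the median was 0.014 over the members and 0.20 over all genes. In MI hearts at T2 limma called 0 members in either direction, where 0.406% and 1.15% of all genes were called. An unadjusted p under 0.05 was found for 0 members and for 2156 of all 15533 genes. edgeR and DESeq2 also called 0. For no member did all OE MI hearts lie above all WT MI hearts, where 8.69% of all genes did, and for 1 they lay below, where 10.3% did. The difference between both effects was above 0 for 54 members, with a median of 0.20. For this difference limma called 0 in either direction, where 2.39% and 2.54% of all genes were called. An unadjusted p under 0.05 was found for 13 members and for 3229 of all 15533 genes. DESeq2 called 2 members and 626 of all genes higher.

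At T3 fewer members were called in sham hearts. In OE sham against WT sham hearts 1 member rose and 4 fell, where 6.54% and 6.57% of all genes were called, and the median was −0.11 over the members and −0.02 over all genes. For 16 members all OE sham hearts lay below all WT sham hearts, where 13.2% of all genes did, against 14 members at T2, where 13.5% did, and 53 members were below 0, against 55 at T2. Rpl7l1, a paralog of the large-subunit protein Rpl7 with a role in ribosome assembly, had 875, 830.4 and 871 normalized counts in OE, against 744, 623, 646 and 646 in WT, with no overlap (0.37 ± 0.09, limma adjusted p = 0.00604), and kept its call in all 17 alternatives. Its effect at T2 was −0.14, and the change of effect from T2 to T3, 0.51 ± 0.12, passed the test (limma adjusted p = 0.00779), where 6.19% of all genes were called higher and 6.11% lower in that comparison; it was the only member called there. Rpl7 itself did not pass the test in any of the 9 comparisons of genotype or injury. Among those that fell besides Rps4l were Rps9 (−0.30 ± 0.09) and Rps25 (−0.23 ± 0.07), with limma adjusted p-values of 0.0213 and 0.0340. For Rps25 the OE sham hearts had 731, 800.2 and 724.5, against 860, 866, 944 and 847 in WT sham hearts. The number that fell was 0 without OE sham T3 replicate 3 or WT sham T3 replicate 3, 1 without OE sham T3 replicate 1, and 2 without WT sham T3 replicate 2.

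In OE MI against WT MI hearts at T3 limma, edgeR and DESeq2 called 0 members, where limma called 1.2% of all genes higher and 2.09% lower. There 1 member had an unadjusted p under 0.05, as did 2614 of all 15533 genes. For 4 members all OE MI hearts lay above all WT MI hearts, where 4.58% of all genes did, and for 0 members below, where 4.71% did.

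MI against sham in WT hearts gave 0 higher and 2 lower at T2, where 11.4% and 10.4% of all genes were called, and 2 higher and 1 lower at T3, where 8.25% and 6.67% were. The lower ones were Rpl3l at each time and Rpl9 at T2 (−0.30 ± 0.11, limma adjusted p = 0.0451). Rpl9 lost its call without WT MI T2 replicate 3 or 4, or without WT sham T2 replicate 1, 3 or 4. The higher ones at T3 were Rpl3 and Rpl27a, a large-subunit protein, at 186, 152, 167 and 144 normalized counts in WT MI hearts, against 137, 114, 128 and 138 in WT sham hearts (0.32 ± 0.10, limma adjusted p = 0.0266). Rpl27a lost its call without WT sham T3 replicate 2 or 3 or WT MI T3 replicate 1 or 3, and the number that rose was 0 without either of these WT MI hearts and 1 without WT sham T3 replicate 2, 3 or 4. At T3 the groups were apart for 4 members higher after MI and 1 lower, where 9.72% and 9% of all genes were. The interaction at T3 gave 0 calls by limma in either direction, where 0.00644% and 0% of all genes were called. There 10 members had an unadjusted p under 0.05, as did 1665 of all 15533 genes.

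**Figure D2:**
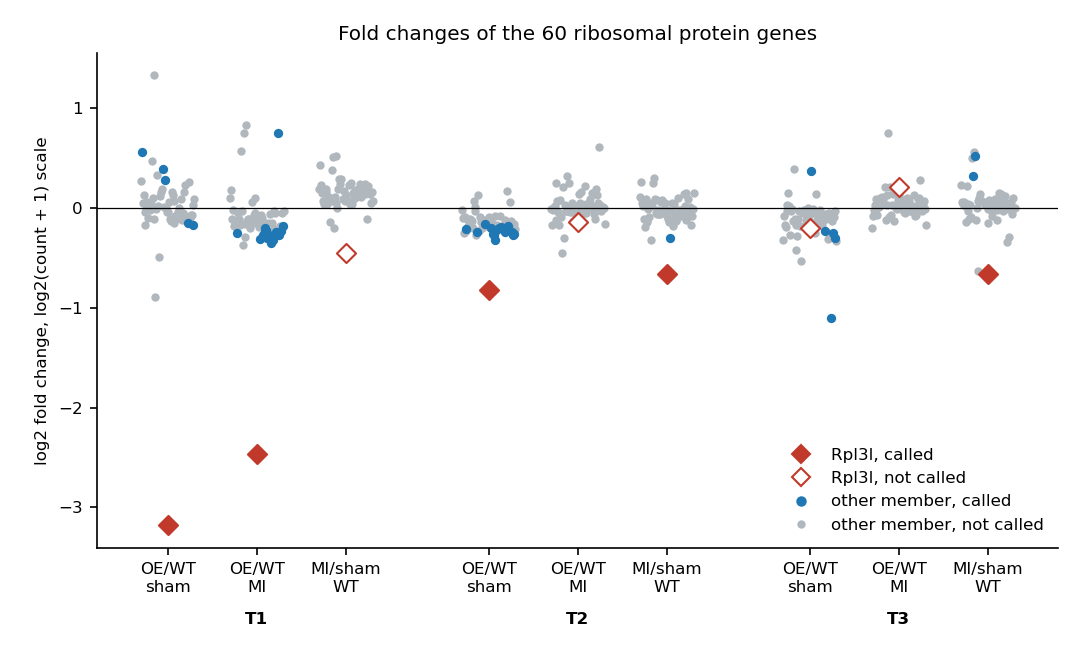
Each point is the log2 fold change of 1 of the 60 members in 1 of 9 comparisons; the diamond is Rpl3l, filled where called, and other members are blue where called and grey where not. At T1 Rpl3l lies at −3.18 in OE sham and −2.47 in OE MI hearts, far from most members, 55 or more of which lie between −0.5 and 0.5 in each comparison.

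The balance between the subunits differed between genotypes at T1. The summed normalized counts of the 36 large-subunit members other than Rpl3l, divided by those of the 23 small-subunit members, do not depend on how libraries are scaled. This ratio was 1.31 to 1.36 in OE sham hearts at T1, against 1.23 to 1.26 in WT sham hearts, and 1.28 to 1.36 in OE MI hearts, against 1.19 to 1.24 in WT MI hearts. The groups did not overlap in either pair. The sums weigh high genes most, and without Rplp0 and Rpl41 the ranges were 1.07 to 1.11 in OE sham against 1.03 to 1.04 in WT sham hearts, and 1.05 to 1.13 in OE MI against 0.995 to 1.04 in WT MI hearts. At T2 and T3 the ranges of OE and WT hearts overlapped, for example 1.26 to 1.28 in OE sham against 1.23 to 1.29 in WT sham hearts at T3. The ratio was formed after the fold changes had been seen and is given as a description.

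Summed over the 59 members other than Rpl3l, the level at T1 was close between genotypes in sham hearts. Among MI hearts it was lower on average in OE. There the groups overlapped, at 66003 to 73689 in OE MI against 72364 to 78996 in WT MI hearts. The sums are given without a test. At T1 the sum was 70107 ± 3547 normalized counts in OE sham hearts, against 70465 ± 3145 in WT sham hearts, and 69852 ± 3209 in OE MI hearts, against 76914 ± 3065 in WT MI hearts (SD, n = 4 each). At T2 OE sham hearts held 61165 to 64250.4, against 64958 to 85105 in WT sham hearts. At T3 OE sham hearts held 59651 to 63262, against 63489 to 71544 in WT sham hearts. In these last comparisons the ranges did not overlap, although the WT sham range at T2 is stretched by its replicate 3.

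As a share of all reads assigned to genes, the order at T1 was another. The 59 members took 0.432% to 0.456% of reads in OE sham hearts at T1, against 0.334% to 0.385% in WT sham hearts. The means were 0.467% in OE MI hearts and 0.427% in WT MI hearts. Their ranges overlapped, at 0.439% to 0.509% in OE MI against 0.383% to 0.463% in WT MI hearts. At T2 the means were 0.410% in OE sham hearts and 0.408% in WT sham hearts, and at T3 0.359% in OE sham hearts and 0.364% in WT sham hearts. The share is set against all reads, including the mitochondrial reads given above, which were fewer in OE hearts at T1; their part in the share was not tested.

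**Figure D3:**
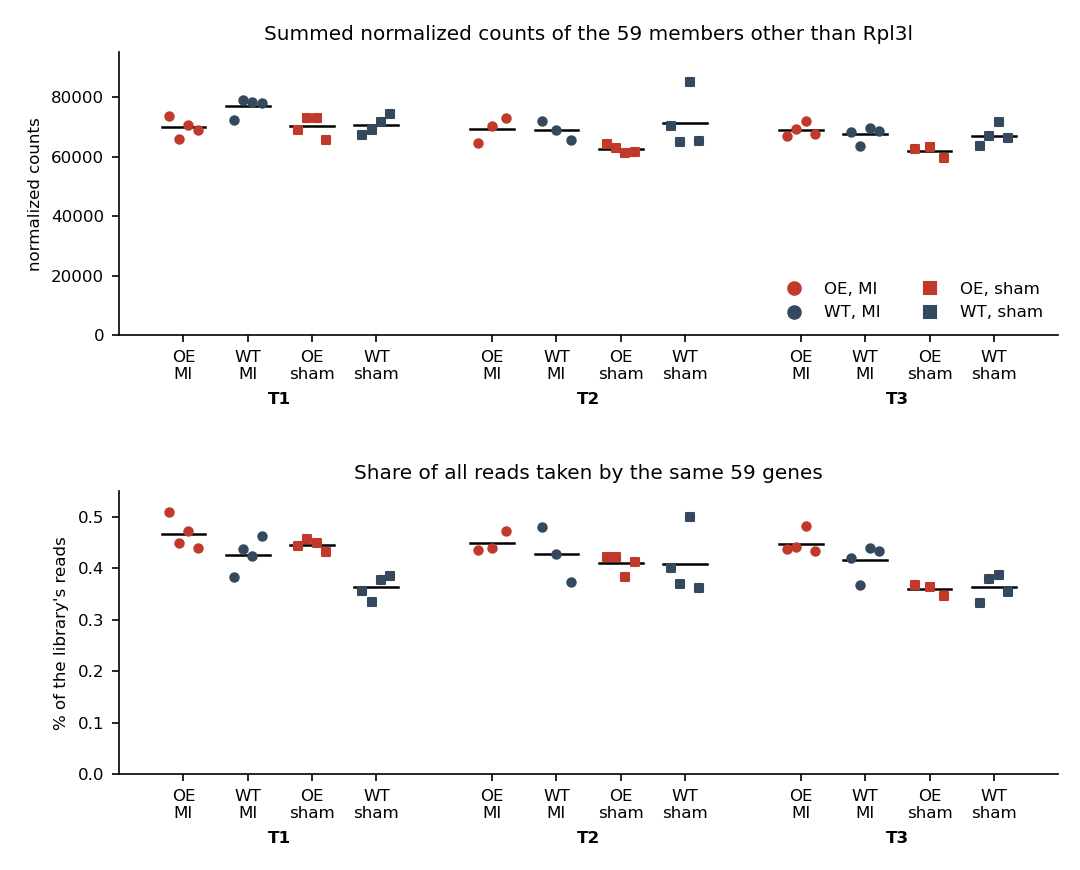
Each point is 1 heart, with OE MI, WT MI, OE sham and WT sham from left to right at each time and bars at means; the upper axis is the sum of normalized counts over the 59 members other than Rpl3l and the lower axis their percent of all reads assigned to genes. At T1 OE sham hearts sit level with WT sham hearts in the upper panel (means 70107 and 70465) and above them in the lower panel (0.432% to 0.456% against 0.334% to 0.385%).

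A few members differed from heart to heart in a way that did not follow the groups. Rpl34, a large-subunit protein, had 652, 377, 380.03 and 40.8 normalized counts in OE sham hearts at T1, against 29.5, 343, 386 and 380.6 in WT sham hearts. In MI hearts at T1 it had 759, 335, 397 and 654 in OE, against 49.1, 411, 419 and 756 in WT. Thus 3 of 16 hearts were at or below 49.1 and came from 3 groups. Rpl30, a large-subunit protein, had 136, 136, 144 and 263 in OE sham hearts, against 298, 124, 489.9 and 455 in WT sham hearts, and 118, 264, 144 and 462 in OE MI hearts, against 329, 123.5, 358 and 321 in WT MI hearts. Rpl29, likewise of the large subunit, had 46.6, 209 and 172 in OE sham hearts at T3, against 49.2, 349.5, 212 and 177 in WT sham hearts.

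Such spread was the exception. Within groups, the SD of log2 values at T1 was 1.55 for Rpl34, higher than in 99.1% of all genes tested, and 1.18 for Rpl3. It exceeded 0.5 for 4 members in the first table and 1 in the second, and was under 0.2 for 51 and 52 members. The median within-group SD was 0.108 over the members and 0.205 over all genes tested in the first table, and 0.119 and 0.175 in the second. Of their 50-base words, Rpl34 shares 6.93%, Rpl30 29.7% and Rpl29 47.9% with other genes, the last with 80 genes. Across 59 members the within-group SD and this share had a Spearman rho of 0.16 in the first table and 0.29 in the second, again a description. Rps2, left out by the rule, had 31.1, 28.0 and 28.0 in OE sham hearts at T3, against 24.0, 2228, 2365 and 2301 in WT sham hearts, and was called lower there (−4.63 ± 0.95, limma adjusted p = 0.00298), although 1 WT sham heart lay below all 3 OE sham hearts.

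**Figure D4:**
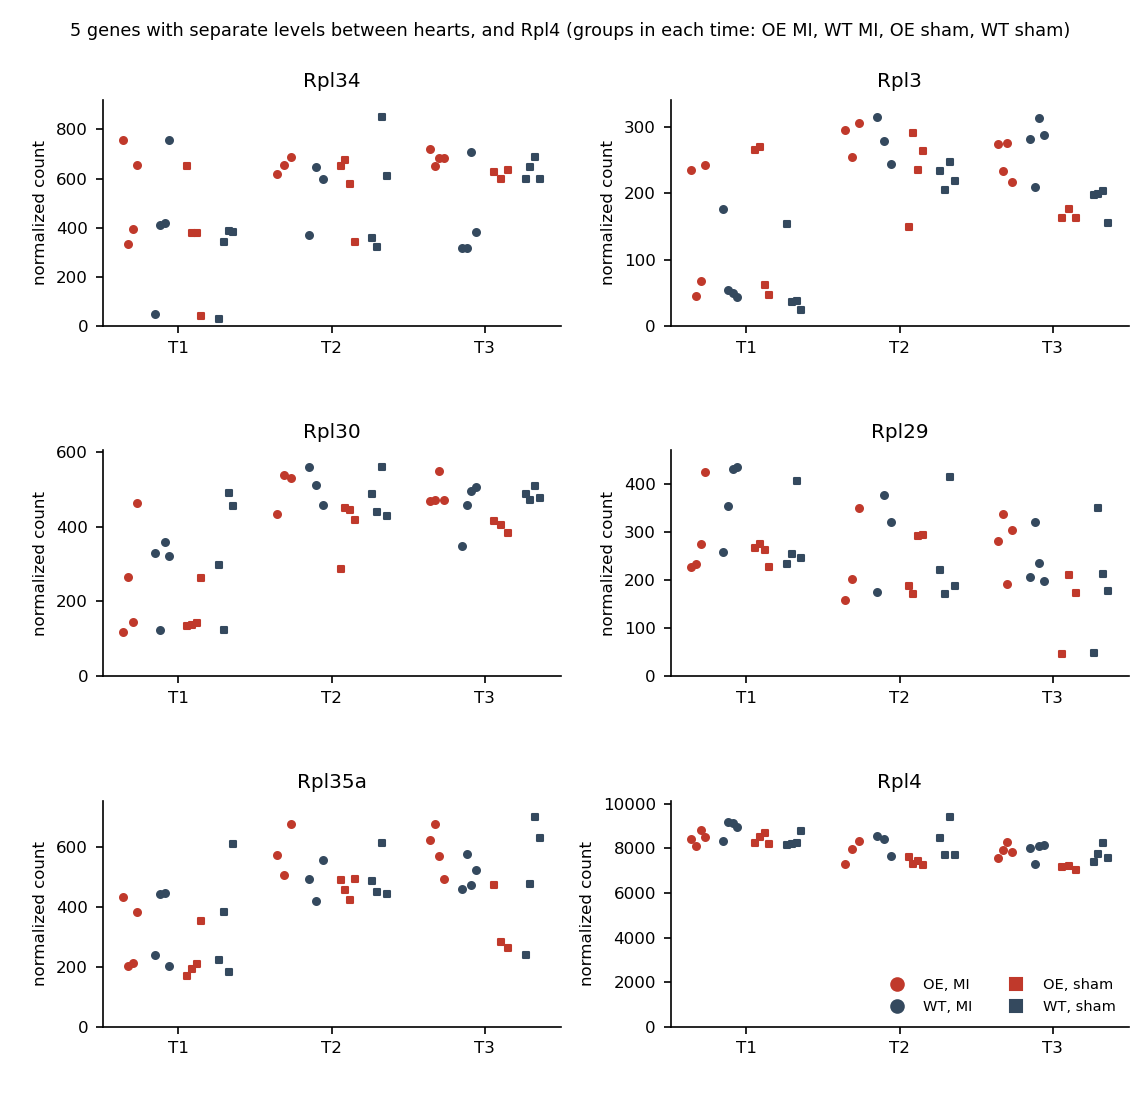
Each point is 1 heart, on a linear axis of normalized counts that starts at 0, for Rpl34, Rpl3, Rpl30, Rpl29, Rpl35a and, as a member with little spread, Rpl4, with OE MI, WT MI, OE sham and WT sham from left to right at each time. Rpl34 lies between 29.5 and 49.1 in 3 hearts of T1, while Rpl4 lies between 8122 and 9202 in all 16 hearts of that time.

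Members used as reference genes in PCR work can be read from the same values. Rpl13a did not pass the test in any of the 9 comparisons of genotype or injury, with log2 fold changes between −0.19 and 0.15. Rpl32 and Rpl4, the highest member at 7038 to 9391 normalized counts over all hearts, were called only in OE sham against WT sham hearts at T2, at −0.24 and −0.16, and Rplp0 only there, at −0.26. Without WT sham T2 replicate 3 the call of Rplp0 was lost (−0.17, limma adjusted p = 0.0505). Rps18, below the minimum, ranged over 31.6 to 192 normalized counts at T1. Rpsa, the laminin receptor of the small subunit, Rpl38, Rpl22, Rpl10 and Rps27l did not pass the test in any of the 9 comparisons.

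The start of the gene offers a property that the choice by symbol did not use. A run of at least 8 pyrimidines that begins with C, on the gene's strand and within 20 bases of the RefSeq start (GRCm38.p6), was found in 22 of the 45 members with a promoter sequence (48.9%), and in 14.5% of 27025 genes. The windows of 40 bases around the start are shown for Rpl3l, which has no such run, and for 3 members that do, with the run in capitals. The windows are chr17:24727806-24727845 on the plus strand for Rpl3l, chr9:44407694-44407733 on the plus strand for Rps25, chr7:3704021-3704060 on the plus strand for Rps9 and chr3:130730379-130730418 on the minus strand for Rpl34.
Rpl3l: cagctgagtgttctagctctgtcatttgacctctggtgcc
Rps25: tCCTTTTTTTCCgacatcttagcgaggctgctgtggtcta
Rps9: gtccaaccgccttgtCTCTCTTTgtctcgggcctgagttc
Rpl34: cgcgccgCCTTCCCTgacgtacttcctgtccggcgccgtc
The RefSeq start of Rps25 lies 575 bases from the outer start of the gene in GENCODE M21, that of Rps9 48 bases and that of Rpl34 0 bases, so the window of Rps25 shows a start inside the annotated gene.

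Among constituents of the ribosome whose symbols fall outside the rule, Rpl36al fell in OE sham hearts at T2 (−0.23 ± 0.08, limma adjusted p = 0.0282), and Fau and Rack1, small-subunit constituents, did not pass the test in any of the 9 comparisons of genotype or injury.

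Genes of ribosome assembly moved in both directions in sham hearts at T1. Of 40 biogenesis genes tested, 15 rose and 6 fell in OE sham hearts, with a median of 0.16, against 0.01 over all genes, of which 24% and 23.3% were called. Bop1, which matures the large-subunit RNA, rose by 0.63 ± 0.10 (limma adjusted p = 6.87e-05), and Rrp12, an export factor, by 0.71 ± 0.18. Polr1a, the largest subunit of RNA polymerase I, fell by 0.66 on the log2 scale, ± 0.10 (limma adjusted p = 5.08e-05). In OE MI hearts at T1 3 rose and 5 fell, where 14.7% and 15.2% of all genes were called. In OE sham hearts at T2 0 rose and 10 fell, with a median of −0.13, where 11.8% and 13.6% of all genes were called, and at T3 6 rose and 1 fell, where 6.54% and 6.57% were. The list was not compared with the members by a test.

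Genes listed for oligopyrimidine starts, translation factors and others, moved in both directions. Of 15 tested, 2 rose and 5 fell in OE sham hearts at T1, where 24% and 23.3% of all genes were called. Pabpc1, the poly(A)-binding protein, rose by 0.88 ± 0.07 (limma adjusted p = 3.09e-07), and Eef1a1, the elongation factor that brings tRNA, by 0.82 ± 0.07 (limma adjusted p = 5.90e-07). Naca, of the nascent chain complex, fell by 0.72, ± 0.08, and Hnrnpa1 and Eef1d fell too. Eef1a2, the muscle form of the same elongation factor, fell by 0.59 there while Eef1a1 rose. Of 15 other genes of translation and its control, 3 rose and 3 fell there, against the same shares of all genes, among them Myc, a driver of ribosome production, which rose by 1.32 ± 0.30 (limma adjusted p = 0.00186), and Eif4e, the cap-binding factor, which fell by 0.84, ± 0.15.

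Of 12 genes listed within 100 kb of Rpl3l on chromosome 17, 9 were tested at T1, and 3 fell and 1 rose in OE sham hearts, where 23.3% of all genes fell and 24% rose. Ndufb10, a subunit of respiratory complex I, changed by −0.99 (limma adjusted p = 3.81e-07), Rps2 by −0.996 (limma adjusted p = 0.0162) and Tsc2, an inhibitor of mTOR signalling, by −0.42, while Zfp598, a sensor of collided ribosomes, rose by 0.43. Msrb1, whose gene starts 499 bases beyond Rpl3l, did not pass the test (0.20, limma adjusted p = 0.122).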

How the data were processed

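The deposited signal is a normalized count per gene and library, per the file headers, in 2 tables of 16 and 29 hearts. Cutadapt, STAR, HTSeq, DESeq2 and the build GRCm38 are named in the submitters' processing notes; for versions, strandedness and annotation the sources used here give nothing. Whole reads were recovered from the deposited values: 100% were whole multiples of 1 read within 0.1 reads, the largest distance being 0.0074. Columns were matched to hearts by name.

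Tests used limma 3.58.1 (trend, robust) in R 4.3.3 on log2(normalized count + 1), each table fitted whole, for genes with at least 10 in at least 4 (T1) or 3 (T2 and T3) libraries. P-values were adjusted by Benjamini-Hochberg over all genes, and called under 0.05. Folds are on that log2 scale. With no raw counts deposited, edgeR 4.0.16 and DESeq2 1.42.0 ran on the recovered reads as alternatives. The ratio of Rpl3l to Rpl3 was tested with exact permutations in scipy 1.17.1, with numpy 2.4.6, pandas 2.3.3 and Python 3.11.15. Same-numbered hearts showed no pairing. The limma fit was tested on simulated data: of 200 genes changed by 1 on the log2 scale, 93% were recovered in OE sham against WT sham at T1, over 15375 genes, and 97% at T2, over 15533 genes. Among 63 replicate pairs the lowest chi-square per gene was 4.11, so none was a repeated library.

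Results of a few genes are not reported here. The members and gene lists were chosen with earlier results of these data known. Named genes were the paralogs and partners, the stalk proteins, Rpsa, the 5S particle proteins, Rps6, Rps19, Rps4x, Rpl38, Rps25, Rpl41, PCR reference genes, up to 5 called members each way per comparison with the largest change, and the neighbours of Rpl3l. Rpl34, Rpl30, Rpl29, Rpl35a and other called members were named after their values were seen. Gene positions are from GENCODE M21 and promoter sequences from RefSeq (GRCm38.p6). Alternatives were library totals, totals without mitochondrial transcripts, TMM, edgeR, DESeq2, a pseudocount of 5, no filter, the compared groups alone, a replicate block, leaving out each heart, and, added after seeing the data, scaling to the sum of the members.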

Additional observations from a re-analysis of the deposited data

Results flagged for a closer look

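In 14 of 153 groups of 4 hearts checked, 1 heart stood apart from the others by Dixon's ratio. For genes chosen without their values and checked in separate hearts, chance gives about 1 in 20. Rpl34, Rpl30 and Rpl29 were named after their values were seen, and the items share hearts. The count can therefore not be set against that share. For Rpl3 these were WT MI T1 replicate 1 at 176 normalized counts (others 44.0 to 53.5), WT sham T1 replicate 1 at 154 (others 23.3 to 37.5) and WT sham T3 replicate 4 at 155.3 (others 197 to 202). For Rpl34 it was WT sham T1 replicate 1 at 29.5 (others 343 to 386). For Rpl30 they were WT MI T1 replicate 2 at 123.5 (others 321 to 358), OE sham T1 replicate 4 at 263 (others 136 to 144) and OE MI T3 replicate 3 at 548 (others 469 to 470.5). Rpl26, a large-subunit protein, had 655 in WT MI T1 replicate 1 (others 319 to 331), and Rpl29 had 406 in WT sham T1 replicate 3 (others 232 to 253). Lower hearts were WT sham T2 replicate 2 for Rpl10a at 91.8 (others 126 to 128), WT MI T3 replicate 2 for Rps9 at 2505 (others 2778 to 2825) and WT sham T1 replicate 1 for Rpl7l1 at 658 (others 766 to 787).

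The summed level of the members other than Rpl3l was 72364 normalized counts in WT MI T1 replicate 1, against 77913 to 78996 in the other 3 hearts of its group. Their share of reads was 0.481% in OE MI T3 replicate 3, against 0.433% to 0.441% in the others.

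The effect of OE in sham hearts differed between T3 and T2 for Rpl7l1, by 0.51 ± 0.12 on the log2 scale (limma adjusted p = 0.00779). With library totals the difference was 0.41 and the adjusted p 0.0686, so the call was lost there. It was kept in the other 24 alternatives run.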

How the results depend on the processing

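Rpl3l kept its call and direction under all alternatives run in OE sham at T1 (−3.34 to −2.88), OE MI at T1 (−2.68 to −2.19), OE sham at T2 (−0.88 to −0.62) and WT MI against WT sham at T2 (−0.72 to −0.53) and T3 (−0.76 to −0.48). Counts of the members moved with scaling, with other choices and with single hearts. With library totals they were 44 higher and 1 lower in OE sham and 13 and 1 in OE MI at T1, 13 higher in WT MI at T1, 1 lower in OE sham at T2, 1 higher and 1 lower in WT MI at T2, 0 lower in OE sham at T3, 17 higher in WT MI at T3 and 0 higher for T3 minus T2. Without mitochondrial transcripts in the totals they were 19 and 1, 3 and 2, 9 higher, 1 lower, 2 higher and 1 lower, 1 lower and 4 higher, in the same order to WT MI at T3. Scaling to the members' sum gave 3 higher and 2 lower in OE MI at T1, 1 lower in OE sham at T2, 1 higher in WT MI at T2 and 0 lower in OE sham at T3. Since that scaling makes the sum equal in all libraries, few calls among the members were largely fixed in advance. The calls over all genes moved too. Library totals called 7140 genes higher in OE sham and 6274 in OE MI at T1, 1150 in WT MI at T1 and 3612 in WT MI at T3. Without mitochondrial transcripts these were 5283, 3913, 939 and 2106.

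TMM scaling and edgeR each gave 5 higher and 1 lower in OE sham and 1 higher in WT MI at T1. Of all genes, TMM called 3945 higher and 3356 lower in OE sham and 756 higher in WT MI at T1. For edgeR these were 3896, 3365 and 764. DESeq2 gave 2 higher in WT MI at T1, 2 in the T2 interaction and 2 for T3 minus T2, where it called 1029, 626 and 1120 of all genes higher. The compared groups alone gave 9 lower in OE MI at T1, 5 lower in OE sham and 1 lower in WT MI at T2, 1 higher in WT MI at T3 and 2 for T3 minus T2. Calls over all genes moved there too. Lower were 1767 in OE MI at T1 (2344 in the main fit), 1772 in OE sham at T2 (2109) and 623 in WT MI at T2 (1613). Higher were 1075 in WT MI at T3 (1281) and 952 for T3 minus T2 (961). Without a filter 1 was lower in OE sham at T1 and 1 in WT MI at T2. The cause of these moves was not tested.

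Same-numbered hearts correlated by −0.35 to 0.25, and 6 of 32 pairs matched best by number, so the numbers do not pair hearts. The replicate block gave 1 lower in OE sham at T1, 2 higher in OE MI at T1, 1 lower in WT MI at T2, 1 higher in the T2 interaction and 2 for T3 minus T2. It also took Rpl3l past the threshold in the T2 interaction (0.69, limma adjusted p = 0.0436) and for T3 minus T2 in sham hearts (0.68, limma adjusted p = 0.0172). With the block the ratio differences were −4.51, −3.22 and −0.84 in OE sham T1, OE MI T1 and OE sham T2, each with an exact permutation p of 0.125, the smallest possible, and 0.12 in OE sham T3.

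Leaving out 1 heart gave 3 to 7 higher and 1 to 3 lower in OE sham T1, 1 to 2 higher in OE MI T1, 0 to 1 higher in WT MI T1, 3 to 22 lower in OE sham T2, 0 to 1 higher and 1 to 2 lower in WT MI T2, 0 to 2 higher in the T2 interaction, 0 to 6 lower in OE sham T3, 0 to 1 higher in OE MI T3, 0 to 2 higher and 1 to 2 lower in WT MI T3, and 1 to 2 higher and 0 to 1 lower for T3 minus T2. The ratio differences ran over −5.13 to −3.90, −3.88 to −2.84, −1.05 to −0.63, −0.44 to 0.067 (OE MI T2) and −0.16 to 0.12 (OE sham T3); with 3 hearts against 4 no exact p can be below 0.0571.

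With library totals the sign turned, to at most 0.086, in OE MI T1 for Rplp2 (0.0029), Rps14 (0.028), Rps15 (0.048), Rps19 (0.0040), Rps3 (0.030), Rps3a1 (0.020), Rps4x (0.0021), Rps7 (0.039) and Rps9 (0.086). In OE sham T2 the sign turned for Rpl4 (0.042), Rpl8 (0.0028), Rps15a (0.00058), Rps19 (0.011) and Rps3 (0.025). In OE sham T1 it turned for Rps9 (0.13) and for Rps3a1 (0.15), which was then called higher (limma adjusted p = 0.0433). Scaling to the members' sum turned Rpl4 (0.022) and Rps3 (0.0051) in OE sham T2.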
